A study of Mus musculus with 6 samples.

Results

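The genes described here encode the proteasome, the protease that degrades ubiquitin-tagged proteins, together with its activators and assembly factors. They were chosen by symbol: every probe whose gene symbol starts with Psma, Psmb, Psmc, Psmd, Psme, Psmf or Psmg and a digit. The rule took 67 of 25697 probes, which stand for 45 of 16593 named genes. The 5 immunoproteasome genes Psmb8, Psmb9, Psmb10, Psme1 and Psme2, with 7 probes, were kept apart from the others. Psmc3ip and Psme3ip1 meet the naming rule but encode proteins that bind a subunit, so they were counted apart from the 38 constitutive genes. Psmd3 and Psmf1 were not analysed here.

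RNA came from ankle synovium of collagen-induced arthritis, in which DBA/1 mice, here males, develop joint inflammation once immunized with type II collagen. All groups had the same treatment: at 6 to 8 weeks of age an injection at the tail base of bovine collagen emulsified with complete Freund's adjuvant, and after 2 weeks a footpad boost in incomplete adjuvant. Illumina bead arrays measured 2 samples each at week 6 (induction), week 9 (peak) and week 15 (resolution), the phases the series gives to these times. Each sample was pooled tissue without the boosted foot, and the labels do not say whether the 2 arrays of a week hold different pools, so every p-value reflects the spread between arrays alone, which may be technical. No unimmunized mice were analysed here, and a lower signal in whole tissue cannot tell fewer cells of a type from less RNA per cell.

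The core of the proteasome is a barrel of outer alpha rings and inner beta rings, and a few of the beta subunits carry the proteolytic sites. Interferon-gamma induces a second set of catalytic subunits, encoded by Psmb8, Psmb9 and Psmb10, which replace those encoded by Psmb5, Psmb6 and Psmb7 in newly built particles. It also induces PA28, the activator encoded by Psme1 and Psme2. The resulting immunoproteasome is abundant in lymphocytes and other immune cells, and it supplies peptides for presentation on MHC class I. The regulatory particle, built of Psmc ATPases and Psmd subunits, binds ubiquitin chains, removes them and threads the protein into the barrel.

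Psmb8 and Psmb9 lie within the MHC class II region of mouse chromosome 17, beside the peptide transporter genes Tap1 and Tap2. In the RefSeq table of GRCm38.p6 the order is Psmb9, Tap1, Psmb8 and Tap2, and the starts of Psmb9 and Tap1 lie 225 bases apart on opposite strands. Promoters were taken from RefSeq for GRCm38.p6, from 250 bases before to 50 bases after the start of each gene, and 39 of the 45 genes had one. Printed below are the stretches from 250 bases before to 20 bases after the start for 3 immunoproteasome genes and for Psmb5, the constitutive counterpart of Psmb8. Capitals mark the motif matches named after them.

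Psmb8, chr17:34197945-34198214, plus strand: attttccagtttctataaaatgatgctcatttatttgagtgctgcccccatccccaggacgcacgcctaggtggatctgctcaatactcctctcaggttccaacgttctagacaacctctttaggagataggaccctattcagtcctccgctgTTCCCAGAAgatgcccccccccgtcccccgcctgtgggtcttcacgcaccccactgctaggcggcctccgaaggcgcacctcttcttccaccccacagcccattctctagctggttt
Psmb9, chr17:34187311-34187580, minus strand: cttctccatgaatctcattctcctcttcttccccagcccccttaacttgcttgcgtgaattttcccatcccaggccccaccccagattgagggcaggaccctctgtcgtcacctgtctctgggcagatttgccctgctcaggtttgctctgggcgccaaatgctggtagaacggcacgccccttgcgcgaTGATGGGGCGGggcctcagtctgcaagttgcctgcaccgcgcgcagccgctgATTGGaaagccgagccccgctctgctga
Psme1, chr14:55578244-55578513, plus strand: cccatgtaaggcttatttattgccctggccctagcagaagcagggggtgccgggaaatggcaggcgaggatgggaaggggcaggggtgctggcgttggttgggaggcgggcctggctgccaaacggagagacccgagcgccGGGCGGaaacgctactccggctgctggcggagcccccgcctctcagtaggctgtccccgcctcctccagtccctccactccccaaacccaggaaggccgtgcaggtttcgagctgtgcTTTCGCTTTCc
Psmb5, chr14:54617976-54618245, minus strand: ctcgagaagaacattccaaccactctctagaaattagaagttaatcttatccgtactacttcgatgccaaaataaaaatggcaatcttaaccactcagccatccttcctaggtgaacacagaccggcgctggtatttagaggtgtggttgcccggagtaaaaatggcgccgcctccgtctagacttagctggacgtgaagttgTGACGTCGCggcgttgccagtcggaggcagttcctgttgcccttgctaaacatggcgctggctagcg

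Psmb8 held a match to TTCNNNGAA, the pattern bound by STAT proteins, at -97 to -89 from the start. This pattern was present on either strand in 9.55% of 27025 genes with a promoter, in 1 of 5 immunoproteasome genes and in 2 of 32 constitutive genes. Psme1 held the core of the interferon-stimulated response element (GAAA, any 2 bases and GAAA) on the reverse strand at 10 to 19 bases after the start, a pattern found in 3.99% of all genes, 1 of 5 immunoproteasome genes and 3 of 32 constitutive genes. Psmb9 held TGANNNNGC, the core of the antioxidant response element, overlapping a GC box (GGGCGG), and Psmb5 held TGANNNNGC at -47 to -39. TGANNNNGC is common, with 45% of all genes, 3 of 5 immunoproteasome genes and 18 of 32 constitutive genes. The GC box was in 38.2% of all genes, 3 of 5 immunoproteasome genes and 19 of 32 constitutive genes. CCAAT, which stands reversed as ATTGG in Psmb9, was in 41.1%, 1 of 5 and 12 of 32. The NF-kappaB-like pattern GGGANTTCC was in 1.92% of all genes and in none of these 5 and 32. The matches describe letters in these windows only, and binding of a factor was not measured.

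Signals are log2 intensities after background correction and quantile normalization, so a difference of 1 is a doubling. A probe was tested where it stood above the background rows on at least 2 of the 6 arrays. This left 57 probes of 41 proteasome genes, of which 40 were detected on all 6 arrays. Psma1 and Psma6 of the alpha ring were detected on no array, and Psmb6, the catalytic counterpart of Psmb9, and Psmc6, an ATPase, on 1 array each, so these 4 were not tested. A probe at background does not by itself show that the transcript was absent, and how well these probes read their genes was not tested. Psmb6 had 4.42 and 4.82 at week 6, 4.53 and 5.41 at week 9, and 4.52 and 4.59 at week 15, of which only 1 stood above background. The brightest probe stood for its gene. All tests are from limma with Benjamini-Hochberg adjustment over 10167 features and a threshold of 0.05.

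Median intensity ran from 99.07 to 129.5 over the arrays, against a background mean of 86.88 to 111.2. The second week 15 array had the lowest median intensity. After normalization it held the lowest signal of 19 of 41 proteasome genes, or 46.3%, against 33.5% of all features. It also held the highest signal of 6 of 41, or 14.6%, against 24.7% of all features. Its correlation with the first week 15 array was 0.9753, against 0.9913 between the week 6 arrays and 0.9911 between the week 9 arrays. Of the listed T cell markers on the array, 4 of 5 passed the detection filter, and of the B cell markers 5 of 5 did. All of these were detected on every array. Of 12 fibroblast markers on the array, 10 passed the filter and 8 were detected on every array. The synovial lining gene Prg4 was not analysed here.

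No proteasome gene passed the threshold in any comparison. At week 9 against week 6, 0 of 41 were called, where 0.354% of all features were. The count was 0 of 41 at week 15 against week 9, where 1.19% of features passed, and 0 of 41 at week 15 against week 6, where 0.0492% passed. The moderated F test for any change over the 3 weeks called 0 of 41, against 0.62% of features, with the lowest adjusted p, 0.0630, for Psmb5 (limma). Genes with an unadjusted p under 0.05 numbered 4 of 41 at week 9 against week 6 (all features, 16%), 8 of 41 at week 15 against week 9 (23.2%) and 4 of 41 at week 15 against week 6 (14.4%).

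The 95% intervals show which sizes of difference the spread between arrays allows. For 37, 35 and 36 of the 41 genes, in the order week 9 against 6, week 15 against 9 and week 15 against 6, the whole interval lay within a doubling in either direction. The same held for 79.3%, 71.8% and 79.4% of all features. For the 41 genes the median width of the interval on either side of the estimate was 0.44 on the log2 scale. For all 5 immunoproteasome genes the interval lay within a doubling in every comparison.

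No immunoproteasome gene differed by more than 0.27 on the log2 scale between induction, peak and resolution as normalized here. Over all settings tried the largest difference was 0.37, that of Psme2 for week 15 minus week 6 without the second week 15 array, followed by -0.35 for Psmb10 at week 15 against week 9 with scaling to the 75th percentile. Psmb8, whose product is the chymotrypsin-like immunosubunit, had log2 intensities of 9.48 and 9.45 at week 6, 9.63 and 9.60 at week 9, and 9.50 and 9.45 at week 15. Both week 9 arrays lay above the other 4, by 0.092 from the nearest. Its differences were 0.15 for week 9 minus week 6 (95% interval -0.22 to 0.51) and -0.13 for week 15 minus week 9 (-0.49 to 0.23).

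Psmb9, the caspase-like site's replacement, had 11.91 and 11.96 at week 6, 11.61 and 11.73 at week 9, and 11.76 and 11.95 at week 15. Here both week 9 arrays lay below the other 4, the opposite order to Psmb8. The differences were -0.27 for week 9 minus week 6 (95% interval -0.66 to 0.12; limma adjusted p = 0.454) and 0.19 for week 15 minus week 9 (-0.20 to 0.58; adjusted p = 0.494). With scaling to the 75th percentile they were -0.06 and 0.03. Tap1, which shares the bidirectional promoter region with Psmb9, had 10.09 and 9.77 at week 6, 10.29 and 9.99 at week 9, and 10.001 and 10.16 at week 15, so its weeks overlapped.

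Psmb10, the trypsin-like immunosubunit, had 11.76 and 11.91 at week 6, 11.85 and 11.98 at week 9, and 11.79 and 11.64 at week 15. Week 15 lay below week 9 without overlap, with a difference of -0.20 (95% interval -0.59 to 0.19). A second probe also gave -0.20, but there 1 of the week 15 arrays lay above both week 9 arrays (11.80 and 11.26 at week 15, against 11.73 and 11.71 at week 9). At week 9 against week 6 its difference was -0.05, against 0.08 on the brighter probe.

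The PA28 alpha gene Psme1 had 12.73 and 12.90 at week 6, 12.83 and 12.59 at week 9, and 12.78 and 12.68 at week 15. These are values of its brightest probe, on which all weeks overlapped. Its differences there were -0.10, 0.02 and -0.08 for week 9 minus 6, week 15 minus 9 and week 15 minus 6. A second Psme1 probe had the opposite signs, with 0.11, -0.08 and 0.03. On that probe the week 15 arrays (12.0362 and 12.0229) lay narrowly above those of week 6 (12.0185 and 11.9767). Psme2, the PA28 beta gene, had 9.42 and 9.46 at week 6, 9.48 and 9.51 at week 9, and 9.81 and 9.35 at week 15. The 2 week 15 arrays were its highest and its lowest. Psme2 has a near-identical copy, Psme2b, and whether its probe also reads that copy was not tested.

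**Figure D1:**
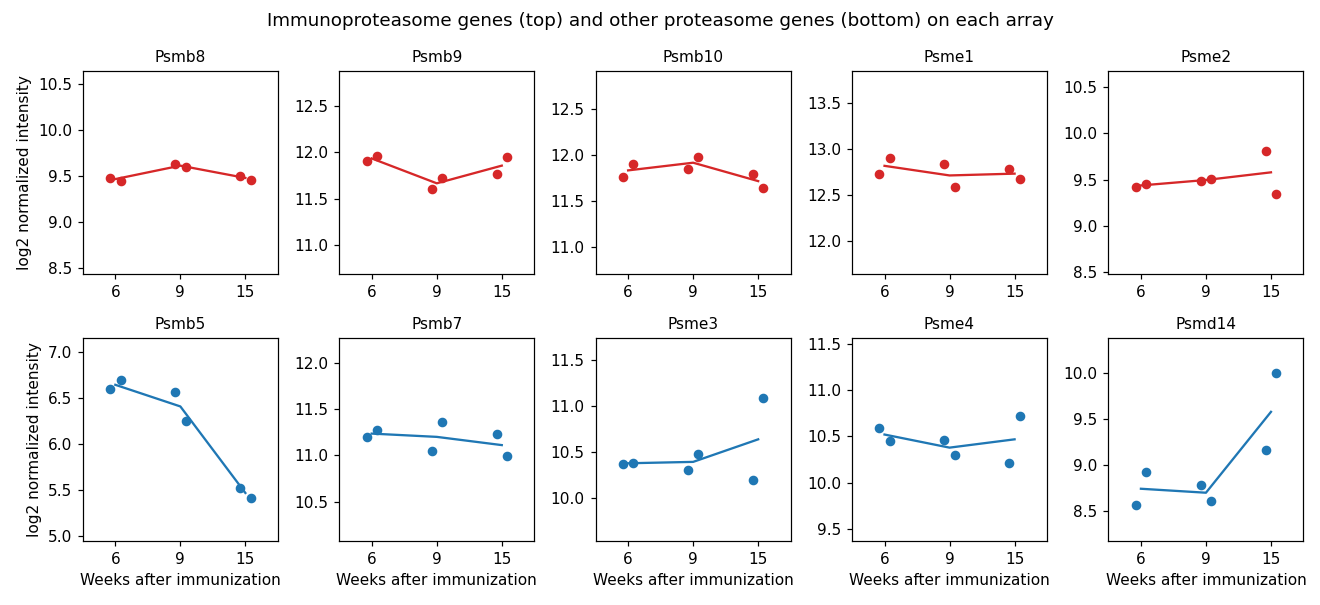
Log2 normalized intensity (vertical axis, the same span of 2.2 in each panel) of 10 proteasome genes on the 6 arrays by week after immunization (horizontal axis). Points are arrays and lines join the means of 2 arrays. The 5 immunoproteasome genes in the top row stay within 0.47 over all arrays, while Psmb5 lies lower at week 15 than at week 6 and Psmd14 and Psme3 split between the week 15 arrays.

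The constitutive counterparts could be compared with the immunosubunits for 2 of the 3 pairs. Psmb5, whose product holds the chymotrypsin-like site, had the lowest adjusted p of any member at week 15. Its log2 intensities were 6.59 and 6.69 at week 6, 6.57 and 6.25 at week 9, and 5.53 and 5.41 at week 15. Both week 15 arrays lay below all 4 earlier arrays, by 0.72 or more.

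The week 15 mean of Psmb5 was 5.47 ± 0.08, against 6.64 ± 0.07 at week 6 (SD, n = 2 each), a difference of -1.17 (SE 0.18, 95% interval -1.59 to -0.75). The limma adjusted p was 0.0844. Against week 9 (6.41 ± 0.22) the difference was -0.94 (SE 0.18, 95% interval -1.36 to -0.52; adjusted p = 0.0620). Psmb5 passed the threshold against week 9 where only probes detected on all 6 arrays were tested (adjusted p = 0.0440), and against both weeks without the first week 15 array (adjusted p = 0.0302 against week 9 and 0.0306 against week 6), a setting that called 19.7% and 9.96% of all features. It rested on 1 probe with a signal near the background, and its size depended on the background correction. Week 15 minus week 6 was -0.77 with an offset of 50, -0.50 with no background correction and -0.34 in the authors' processed values (limma adjusted p from 0.0698 to 0.182). Week 15 minus week 9 was -0.60, -0.38 and -0.26 in the same settings and -0.71 with scaling to the 75th percentile, with no call, and without the second week 15 array neither comparison passed (adjusted p = 0.108 and 0.164).

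Psmb7, which carries the trypsin-like site, had 11.20 and 11.27 at week 6, 11.04 and 11.36 at week 9, and 11.23 and 10.99 at week 15 on the brightest of its 3 tested probes, with overlap between all weeks. The dimmest had 9.07 and 8.99 at week 6, 8.21 and 8.78 at week 9, and 8.75 and 8.82 at week 15. Its week 9 minus week 6 difference was -0.53 (limma adjusted p = 0.291 with each probe as a feature), against -0.04 on the brightest and 0.05 on the other. Psmb1, Psmb2, Psmb3 and Psmb4 encode beta ring subunits without a proteolytic site. On their brightest probes, all 6 tested constitutive beta ring genes had negative differences at week 15, with a median of -0.21 against week 9 and -0.15 against week 6, next to medians over all features of -0.08 and -0.02 and negative differences in 57.6% and 53.1% of features. Without overlap between arrays, 2 of 6 lay lower in each of these comparisons (32.2% of all features lay lower in this way against week 9 and 24.3% against week 6).

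The alpha ring genes form the gate of the barrel. Of the 5 tested, 4 lay lower at week 9 than at week 6 with no overlap (25.6% of all features), and all 5 had positive differences at week 15 against week 9, with a median of 0.11 (42.4% of features were positive). At week 15 against week 6, 3 were positive and 2 negative, with a median of 0.03. Psma3 had the smallest p among them, with 12.50 and 12.79 at week 6, 12.34 and 12.32 at week 9, and 12.92 and 12.86 at week 15. Its arrays did not overlap between any weeks, and week 15 minus week 9 was 0.56 (SE 0.17, limma adjusted p = 0.129; 0.0470 in the authors' processed values).

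The regulatory particle held most of the larger differences. The 5 tested Psmc ATPase genes had a median of 0.14 at week 9 against week 6 and of -0.33 at week 15 against week 9. Psmc3 had 10.44 and 10.36 at week 6, 10.61 and 10.58 at week 9, and 9.983 and 9.999 at week 15, and both week 15 arrays lay below all others. Its week 15 minus week 9 difference was -0.60 (SE 0.15, 95% interval -0.97 to -0.24; limma adjusted p = 0.103). This gene passed the threshold with no background correction (adjusted p = 0.0364), in the authors' processed values (adjusted p = 0.0302) and without the first week 15 array (adjusted p = 0.0473). Psmc5 had 9.82 and 10.22 at week 6, 10.29 and 10.54 at week 9, and 10.09 and 10.06 at week 15, and its week 15 minus week 9 difference, -0.33, was the median of the group. A second Psmc5 probe went another way, with -0.12 at week 9 against week 6 and 0.01 at week 15 against week 9, so that median rests on the choice of probe.

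The 13 Psmd genes encode scaffold, ubiquitin-binding and deubiquitinating subunits and some assembly chaperones. Their differences ran from -0.98 to 0.65 at week 9 against week 6 and from -0.52 to 0.88 at week 15 against week 9. Psmd14, the deubiquitinase that cuts ubiquitin chains off the substrate, had 8.57 and 8.93 at week 6, 8.79 and 8.62 at week 9, and 9.16 and 9.996 at week 15. Week 15 lay above both earlier weeks, but its own arrays were 0.83 apart. The difference was 0.88 against week 9 (SE 0.29, limma adjusted p = 0.144) and 0.83 against week 6 (adjusted p = 0.281). Without the first week 15 array both comparisons passed (differences 1.29 and 1.25; adjusted p = 0.0250 and 0.0338), and without the second neither did (0.46 and 0.42).

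Psmd4, a ubiquitin receptor, had 12.74 and 12.71 at week 6, 12.82 and 12.95 at week 9, and 12.56 and 12.18 at week 15. Both week 15 arrays were its lowest, with a difference of -0.52 against week 9 (SE 0.19, limma adjusted p = 0.168), which passed without the first week 15 array (-0.71, adjusted p = 0.0363) and was -0.33 without the second. Psmd6, a subunit of the lid, had 5.60 and 5.95 at week 6, 5.53 and 5.30 at week 9, and 5.71 and 6.62 at week 15, and its 0.75 against week 9 (adjusted p = 0.205) was 1.20 without that array (adjusted p = 0.0284), 0.30 without the second, 0.30 with no background correction and 0.21 in the authors' values. Psmd8, another lid subunit, had 10.37 and 10.38 at week 6, 10.22 and 10.11 at week 9, and 10.42 and 9.60 at week 15. The week 15 arrays of Psmd8 were its highest and its lowest, and without the first its difference from week 6 was -0.77 (adjusted p = 0.0420), while without the second it was 0.05.

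Psmd2 and Psmd1 encode the large scaffold subunits of the base. Psmd2 had 5.67 and 6.16 at week 6, 4.97 and 4.91 at week 9, and 5.51 and 5.81 at week 15, and it stood above background on neither week 9 array. A second Psmd2 probe was detected on no array. Only a bound on the difference of means can be given on this scale. The Psmd2 mean was at least 1.75-fold lower at week 9 than at week 6 (limma adjusted p = 0.132). It was at least 1.47-fold higher at week 15 than at week 9 (limma adjusted p = 0.125). The bound sets the bright week's mean against the higher, per array, of the probe's own signal and the lowest detected signal. It takes the means as exact and leaves out the spread between arrays. The 95% intervals of the log2 differences were -1.49 to -0.47 and 0.21 to 1.23. The bound holds on this scale only: in the authors' values the log2 differences were -0.24 and 0.17. Psmd1 had 6.08 and 5.77 at week 6, 6.49 and 6.67 at week 9, and 6.28 and 6.85 at week 15. Both later weeks lay above week 6, by 0.65 at week 9 (adjusted p = 0.265) and by 0.64 at week 15 (adjusted p = 0.298), the last of which was 0.92 without the first week 15 array (adjusted p = 0.0482) and 0.35 without the second. In the authors' values both differences were 0.21, and with no background correction 0.30 and 0.29.

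Psmd5, an assembly chaperone of the base, had 7.61 and 7.72 at week 6, 7.32 and 7.13 at week 9, and 7.96 and 7.64 at week 15. Its week 9 arrays were lowest, by -0.44 from week 6, and week 15 lay 0.58 above week 9 (limma adjusted p = 0.307 and 0.136). Psmd11, a lid subunit, had 6.68 and 6.75 at week 6, 7.40 and 6.96 at week 9, and 5.99 and 7.38 at week 15. Its week 15 arrays differed by 1.39, and its interval was the widest of the members, from -1.49 to 0.49 for week 15 minus week 9. That difference, -0.50, was 0.19 without the first week 15 array and -1.20 without the second.

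**Figure D2:**
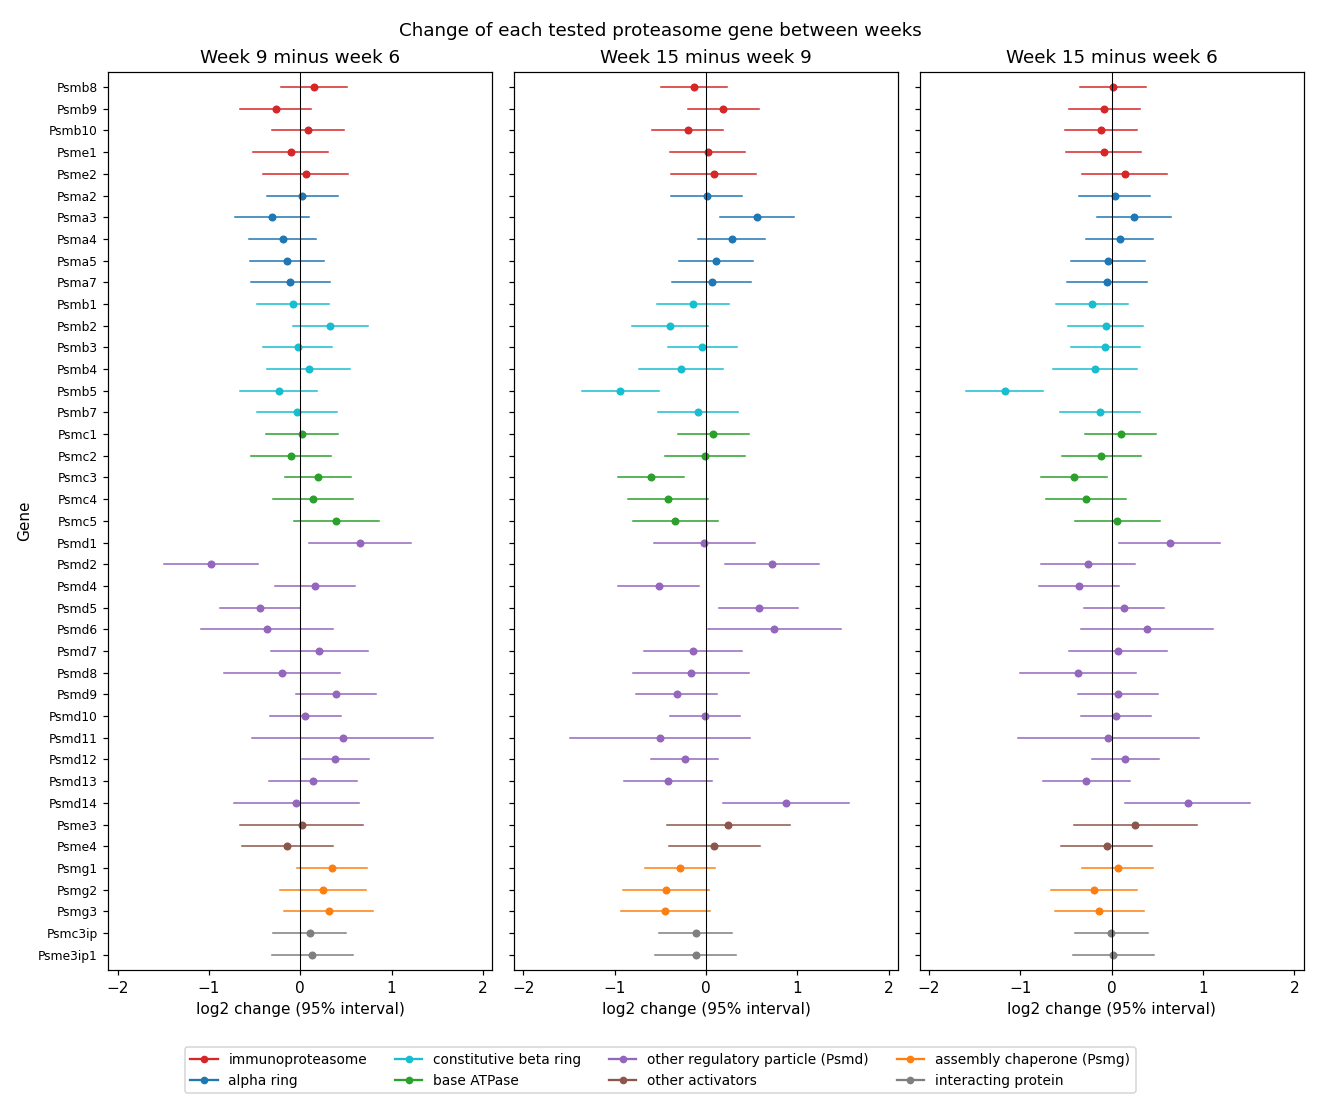
Log2 difference between weeks (horizontal axis) for each of the 41 tested proteasome genes (rows, coloured by role). Points are limma estimates from 2 arrays a week and bars are unadjusted 95% intervals. The 5 immunoproteasome genes at the top lie within 0.27 of 0 in every panel, and Psmb5 has the lowest point at week 15 minus week 6, -1.17.

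The other activators cap the core particle without ATP. Psme3, the nuclear PA28 gamma gene, had 10.37 and 10.38 at week 6, 10.31 and 10.48 at week 9, and 10.20 and 11.08 at week 15. The 2 week 15 arrays were its extremes, and its difference of 0.24 from week 9 was 0.69 without the first of them (limma adjusted p = 0.0407) and -0.20 without the second. Psme4, the gene of PA200, had 10.59 and 10.46 at week 6, 10.46 and 10.30 at week 9, and 10.22 and 10.72 at week 15 on its brightest probe, with overlap throughout. The assembly chaperone genes Psmg1, Psmg2 and Psmg3 lay higher at week 9 than at week 6 without overlap on their brightest probes (32.6% of all features) and lower at week 15 than at week 9 (32.2%). A second Psmg2 probe had the opposite signs, -0.16 and 0.11. Their medians were 0.31 and -0.44, with a lowest limma adjusted p of 0.354 for the first and 0.236 for the second.

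As groups, the constitutive and the immunoproteasome genes lay close to the median of all features. The 34 tested constitutive genes had a median difference of 0.02 at week 9 against week 6, next to 0.06 for the 5 immunoproteasome genes and 0.04 for all features. In the same order the medians were -0.11, 0.02 and -0.08 at week 15 against week 9, and -0.04, -0.08 and -0.02 at week 15 against week 6. Among all 41 genes, 16 lay higher and 11 lower at week 9 than at week 6 with no overlap (all features, 32.6% and 25.6%). The counts were 7 higher and 14 lower at week 15 against week 9 (22.7% and 32.2%), and 5 and 5 against week 6 (19.7% and 24.3%). Both week 9 arrays lay above all other arrays for 11 of 41 genes, or 26.8%, against 20.2% of all features, and below all others for 6 of 41, or 14.6%, against 13%.

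The spread over the 6 arrays, from lowest to highest, was under 0.5 on the log2 scale for all 5 immunoproteasome genes, with a median of 0.33. For the constitutive genes it was under 0.5 in 12 of 34, with a median of 0.63, and for all features in 25.1%, with a median of 0.71. Bright features spread less: at a mean level of at least 10, 49.7% of all features and 9 of 21 constitutive genes were under 0.5, and below that level 19.2% and 3 of 13 were. Psmb9, Psmb10 and Psme1 belong to the brighter class, and Psmb8 and Psme2 to the dimmer. The 6 genes with a spread over 1, Psmb5, Psmd1, Psmd2, Psmd6, Psmd11 and Psmd14, all had a mean level under 10.

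**Figure D3:**
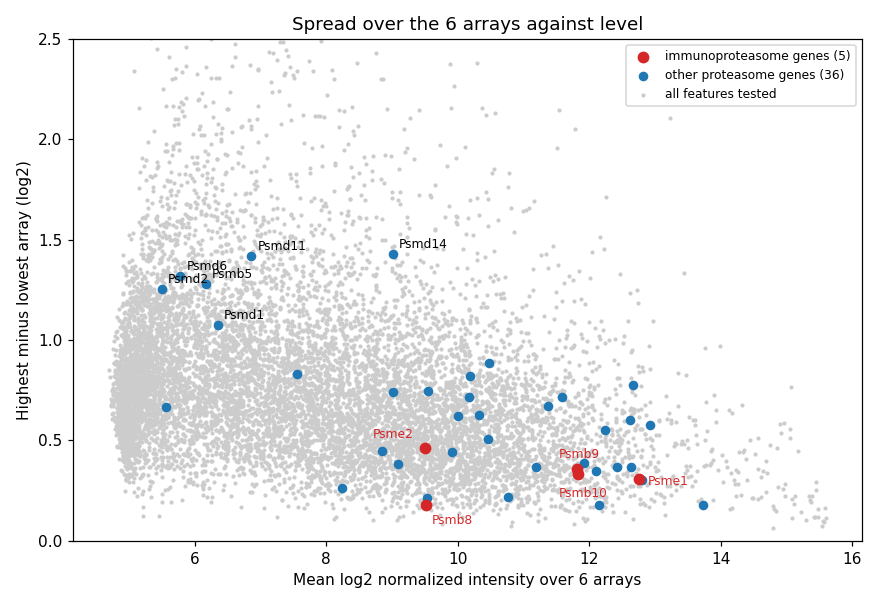
Highest minus lowest of the 6 arrays (vertical axis, log2) against the mean log2 normalized intensity (horizontal axis), for 5 immunoproteasome genes (red), 36 other proteasome genes (blue) and all features tested (grey). The axis ends at 2.5, above which lie 71 features, none of them a proteasome gene. The red points lie at 0.47 or less, and the 6 blue points above 1 lie at levels under 10.

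Several genes had more than 1 tested probe, and the probes often differed. Of 14 such genes, 8 had probes with differences of opposite sign at week 9 against week 6, and also 8, not always the same genes, in each of the other comparisons. The gap between probes was over 0.5 in 3 genes at week 9 against week 6, 4 at week 15 against week 9 and 1 at week 15 against week 6. The 2 probes of Psmd11 gave 0.81 and -0.50 at week 15 against week 9. Those of Psmd7, a lid subunit, gave 0.52 and -0.14 there.

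For Psme4 the dimmer probe had 5.98 and 6.36 at week 6, 5.04 and 5.05 at week 9, and 6.04 and 6.47 at week 15. It stood above background on neither week 9 array. By the bound used for Psmd2, its mean was at least 2.08-fold lower at week 9 than at week 6. It was at least 2.21-fold higher at week 15 than at week 9. Here too the bound is given on this scale only and leaves out the spread between arrays. The 95% intervals of the log2 differences were -1.63 to -0.61 and 0.70 to 1.72. With each of 13633 probes as a feature of its own, an alternative added after the data were seen, this probe passed at week 15 against week 9 (limma adjusted p = 0.0410), and so did Psmb5, where 2.4% of all probes did. The brighter probe of Psme4 gave 0.09 in that comparison. Which transcripts each probe reads was not tested.

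**Figure D4:**
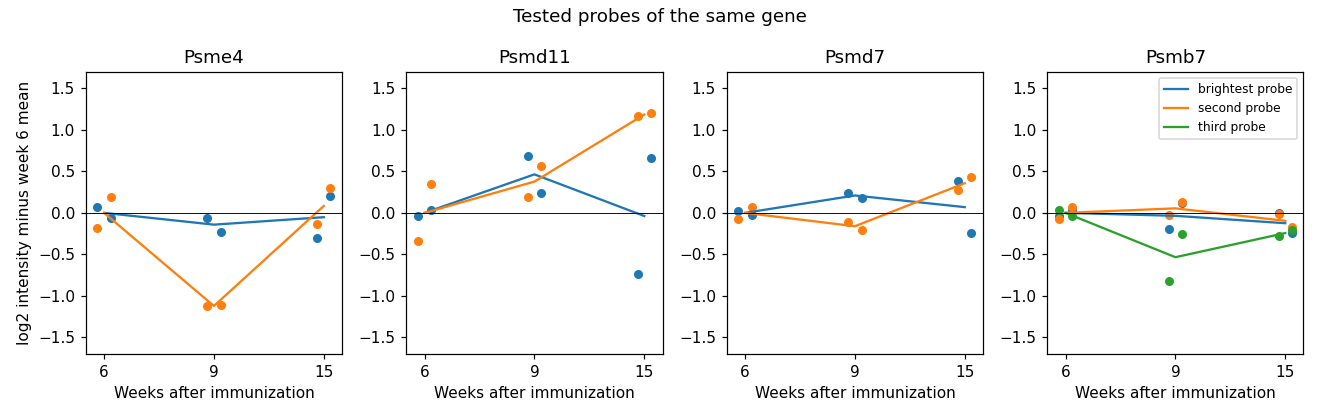
Log2 normalized intensity of each tested probe minus its own mean at week 6 (vertical axis) by week after immunization (horizontal axis), for Psme4, Psmd11, Psmd7 and Psmb7. Points are arrays, lines join the means of 2 arrays, and colours rank the probes by brightness. The dimmer Psme4 probe lies about 1.12 below its week 6 mean at week 9 while the brighter lies 0.14 below.

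Genes that work beside the proteasome were counted by list. Among companions such as the maturation factor Pomp, the shuttle factors and the transcription factor gene Nfe2l1, 0 of 14 tested genes passed in any comparison. The smallest p was that of Usp14, a deubiquitinase bound to the proteasome, at week 15 against week 9: it had 6.97 and 7.31 at week 15, against 6.18 and 6.39 at week 9, a difference of 0.86 (SE 0.19, limma adjusted p = 0.0840). Of genes for activating, conjugating or removing ubiquitin, such as Uba6, Ube2d3 and Usp7, 0 of 10 tested passed in any comparison. No gene of ubiquitin itself was among these 10. Of the genes of MHC class I loading, which use the peptides the immunoproteasome makes, 0 of 13 passed, with median differences of 0.20, 0.07 and 0.32 for week 9 against 6, week 15 against 9 and week 15 against 6.

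Of 19 tested genes of interferon-gamma signalling and its targets, 1 passed, at week 15 against week 9, where 1.19% of all features did. It was Gbp3, a guanylate-binding protein gene, with 11.51 and 12.09 at week 15, against 10.43 and 10.46 at week 9 (difference 1.36, SE 0.22, limma adjusted p = 0.0452). The median difference of that list was 0.03 at week 9 against week 6, 0.31 at week 15 against week 9 and 0.21 at week 15 against week 6. In the same order the immunoproteasome genes, also targets of this cytokine, had 0.06, 0.02 and -0.08. The median level of the list was 10.52 and 10.95 at week 6, 10.43 and 10.46 at week 9, and 10.68 and 11.43 at week 15, so week 15 overlapped week 6. Of 13 tested genes of heat shock and proteotoxic stress, 12 had positive differences at week 15 against week 6, with a median of 0.56. Over all features 4765 of 10167 were positive there, with a median of -0.02. Only 9 of the 13 were detected on every array. Hspa5, Hsp90aa1, Hspb1 and Hmox1 had week 6 means near background, at 4.86, 5.04, 4.79 and 5.35. The chaperone gene Hspa1a was called in all 3 comparisons, with 6.14 and 5.32 at week 6, 8.95 and 8.27 at week 9, and 12.37 and 11.96 at week 15, and no other gene of the list was called. Of all features, 0.354% were called at week 9 against week 6, 1.19% at week 15 against week 9 and 0.0492% at week 15 against week 6.

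Marker lists of cell types in the joint were read beside these values. Over all 10167 features, 5597 differences were positive and 4570 negative at week 9 against week 6, with a median of 0.04. At week 15 against week 6, 4765 were positive and 5402 negative, with a median of -0.02. The shares called were 0.354% at week 9 against 6, 1.19% at week 15 against 9 and 0.0492% at week 15 against 6. Of 10 tested synovial fibroblast genes 9 had negative differences at week 9 against week 6, with a median of -0.63 and 1 called (Vcam1), and 9 of 10 were negative at week 15 against week 6, with a median of -0.81 and none called. Their median level was 8.62 and 7.98 at week 6, 7.00 and 7.05 at week 9, and 7.42 and 6.33 at week 15. The 3 tested macrophage genes were all negative at week 9 against week 6, with a median of -0.84. So were the 3 adipocyte genes, with a median of -1.42 and 1 called (Adipoq), and the 3 erythroid genes, with a median of -1.05, of which 1 was called higher at week 15 against week 9 (Hbb-b2). The 6 neutrophil genes were all negative at week 15 against week 6, with a median of -0.94. The 4 T cell genes were all positive at week 9 against week 6, with a median of 0.40, and the 5 B cell genes had -0.20. The 3 tested skeletal muscle genes had a median level of 8.60 on the first array of week 15, against 5.63 on the second and 6.29 to 6.78 on the week 6 and week 9 arrays. The part of these shifts in the proteasome values was not tested.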

How the data were processed

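Per the file headers, the deposited signal table gives each probe 1 linear intensity on each array. The authors' processed values, on the log2 scale, were an alternative, and each column correlated best with its own array (Pearson's r 0.9959 to 0.9993). How either table was scaled or centred by the authors is not given in the sources used. A further 2 per-sample columns fit no sample and were left aside. Rows without a probe ID numbered 1124. Of these, 13 were left out as more than 5 median absolute deviations above the median on the log2 scale, and 1111 served as background. Intensities were corrected with the normal-exponential model (offset 16), quantile-normalized and log2-transformed with neqc (limma 3.58.1, R 4.3.3). Detection meant a p under 0.05 against the background rows. One linear model over all 6 arrays (lmFit, eBayes) left 3 residual and 4.02 prior degrees of freedom. All p-values are two-sided. The fit was also run on simulated data with independent normal noise on every array. The outcome is not reported here, and such data hold no outlying array. With 2 arrays a week, the number of arrays limits the precision.

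The members and lists were chosen with earlier results of these data known. Values on every array are given for the immunoproteasome genes, their counterparts, Psme3, Psme4, any gene past the threshold, and the 3 largest positive and negative differences per comparison. Psma3, Usp14, Tap1, Gbp3, Ifng and Ifngr2, the dimmer probes and the Psmg genes were described outside that rule after their values were seen. Gene names come from the platform's probe table.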

Additional observations from a re-analysis of the deposited data

How the results depend on the processing

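No proteasome gene was called at week 9 against week 6 under any setting tried. At week 15 against week 9, 1 was called with only probes detected on all 6 arrays (Psmb5), 1 with no background correction (Psmc3), 2 in the authors' processed values (Psmc3 and Psma3) and 2 with each tested probe as a feature, a setting added after the data were seen. The shares of all features or probes called in these settings were 2.19%, 3.49%, 3.24% and 2.4%. Leaving out 1 array gave 0 to 8 called members at week 15 against week 9, 0 to 4 at week 15 against week 6, 0 to 0 at week 9 against week 6 and 0 to 5 in the F test, which also called 1 with only probes detected on all 6 arrays. Every member called on leaving out an array came without the first week 15 array. That setting called 1999 features (19.7%) at week 15 against week 9, 873 higher and 1126 lower, and 1013 (9.96%) at week 15 against week 6, 377 higher and 636 lower, and its 8 of 41 members are near the first share. A week left with 1 array was assumed to vary like the others.

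Features called at week 9 against week 6 numbered 36. They were 71 with no background correction, 83 with an offset of 50, 83 with scaling to the 75th percentile, 171 with only the arrays compared and 0 to 171 on leaving out 1 array. They were 121 at week 15 against week 9, and 355 with no background correction, 275 with an offset of 50, 329 in the authors' values, 3 with only the arrays compared and 0 to 1999 on leaving out 1 array. They were 5 at week 15 against week 6, and 8 with the mean of the probes, 29 with no background correction, 44 with an offset of 50, 10 with the 75th percentile, 15 in the authors' values and 3 to 1013 on leaving out 1 array. The split of calls into higher and lower at week 15 against week 9 was 99 and 22, and 151 and 12 with the 75th percentile, 244 and 111 with no background correction and 220 and 109 in the authors' values. At week 15 against week 6 it was 5 and 0, and 18 and 11 with no background correction, 24 and 20 with an offset of 50, 12 and 3 in the authors' values and 9 and 1 with the 75th percentile. The causes were not tested.

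The constitutive median was 0.02 at week 9 against week 6, 0.195 with the 75th percentile and -0.037 to 0.11 on leaving out 1 array. It was -0.11 at week 15 against week 9, -0.029 with the mean of the probes, -0.22 with the 75th percentile and -0.20 to -0.059 on leaving out 1 array. At week 15 against week 6 it was -0.04, and -0.13 to 0.046 on leaving out 1 array. The immunoproteasome median was 0.06 at week 9 against week 6, 0.21 with the 75th percentile and 0.009 to 0.079 on leaving out 1 array. It was 0.02 at week 15 against week 9, -0.086 with the 75th percentile and -0.15 to 0.072 on leaving out 1 array, and at week 15 against week 6 it was -0.08, and -0.11 to -0.003 on leaving out 1 array. Of 852 alternative values of the named members' differences, 804 kept their sign and 48 did not, and 72 moved by over 1 SE. Of the 57 differences, 24 changed sign in at least 1 setting, the largest of them of size 0.50 (Psmd11 at week 15 against week 9).

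The replicate numbers did not pair the samples: deviations of same-numbered arrays from their group means correlated at -0.039, -0.0823 and 0.154 across features. With the replicate number as a block, features called numbered 8, 34 and 4, and members called 0 in each comparison. Signals near background limit Psmb5, Psmd1, Psmd2, Psmd6 and Psmd9.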
